A study of Arabidopsis thaliana with 69 samples.

Results

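The genes described here are the 135 whose signal stood highest above the control from 3 to 30 h after VND7 was activated in dark-grown Arabidopsis thaliana seedlings. They were chosen on measured values. For each probe set that names 1 gene, the mean of the dexamethasone (DEX) arrays minus the mean of the DMSO arrays was taken at 3, 9, 12 and 30 h, and probe sets were ranked by the lowest of the 4 differences. From the top 150, 15 were left out because they are named single genes or carry symbols of the wall, cytochrome P450, glycosyltransferase, glutathione transferase and carboxypeptidase-like families. The families were matched by symbol, so a gene of these families with only a locus code could stay in, as AT5G49690 did. The remaining 135 came from 13513 probe sets with 1 gene and 22746 probe sets in all, and each stood for a different locus. The 4 differences chose the genes, so they are given below as a description and carry no test. Tests were made at 1, 6, 24 and 48 h and in the line without VND7, which the choice did not use.

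The arrays measured RNA of Col-0 seedlings shaken in liquid culture in the dark and then given DEX at 10 µM or its solvent DMSO. The induced line carried VND7-VP16-GR, and the empty-vector line carried VP16-GR alone. Both lines thus held the VP16 activation domain and the GR domain of the glucocorticoid receptor. A fusion to GR enters the nucleus when DEX is present. In the VND7 line, DEX and DMSO were each measured in 3 biological replicates at 1, 3, 6, 9, 12, 24, 30 and 48 h, with 3 more DMSO replicates at 0 h. In the empty-vector line, DEX and DMSO were each measured in 3 replicates at 9, 12 and 24 h, which made 69 arrays in 23 groups. The fusion was driven by the 35S promoter, which is active in most cell types, so the genes were read in tissue where VND7 is normally absent from most cells. Each sample was a whole flask of seedlings, although the labels name hypocotyl. In such bulk RNA, fewer cells of a type and less RNA per cell cannot be told apart. The VND7 transcript was not read, since no probe set carries its name.

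VND7 is a NAC-domain transcription factor that switches on the differentiation of xylem vessel elements. A vessel element lays down a patterned secondary wall of cellulose, xylan and lignin, then digests its own contents and part of its wall and dies, leaving a hollow tube that conducts water. The work calls for enzymes of wall synthesis and wall loosening, a cytoskeleton that places the wall bands, and hydrolases for the final clearing. Many wall synthesis genes could not enter the set, because they were left out by symbol or had no named probe set. Of the 135 genes 126 are named only by a locus code, and 96 belong to a protein family that is stated below as general background.

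Values are log2 signals, so a difference of 1 is a doubling, and a change means DEX minus DMSO on that scale. The lowest value in the files, 2.14, is a floor below which no level was reported. A gene is said to be at the floor where its mean lay less than 0.3 above it. Levels of different genes were not compared, because probe sets differ in brightness.

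Some labels and profiles of the VND7 line did not go together, and this touches every test at 1, 6, 24 and 48 h. Over the probe sets outside the top 150, 10 arrays resembled the other treatment label more than their own, either by their mean correlation or by their 5 nearest arrays. They were the DMSO arrays of 0 h replicate 3, 1 h replicate 2, 6 h replicate 2 and 24 h replicate 1, and the DEX arrays of 1 h replicates 2 and 3, 24 h replicate 2 and 48 h replicates 1 to 3. None lay at 3, 9, 12 or 30 h. They are called out of place here, no sample was relabelled, and results are given with and without them. Those arrays were picked from the same data, so leaving them out widens a difference by construction.

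The 135 genes followed the same division. In the 23 DMSO arrays of the VND7 line that were in place, the median over the genes ran from 4.27 to 5.09. In the 18 DEX arrays in place it ran from 8.75 to 11.04, so these ranges were far apart. The 4 DMSO arrays out of place read 7.63 at 0 h, 9.09 at 1 h, 8.85 at 6 h and 8.97 at 24 h. The DEX arrays out of place read 7.46 and 4.60 at 1 h, 7.29 at 24 h and 4.81 to 4.91 at 48 h. Thus the genes were high in 4 arrays labelled DMSO and at the DMSO level in 4 labelled DEX. The empty-vector arrays read 3.85 to 4.23 with DMSO and 3.99 to 4.32 with DEX. The median of all probe sets moved the other way and far less, between 4.89 and 5.60 over the 69 arrays.

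**Figure D1:**
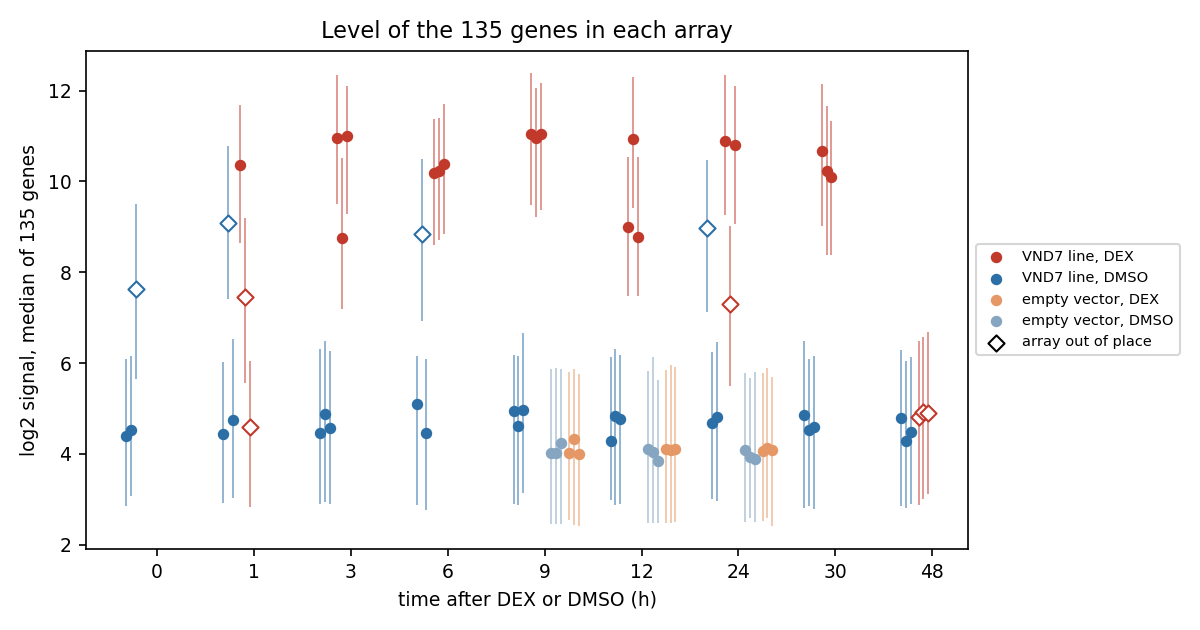
Median log2 signal of the 135 genes in each of the 69 arrays against the time after DEX or DMSO (categories, not to scale); thin lines span the quartiles of the genes and open diamonds are the 10 arrays out of place. DEX arrays in place sit between 8.75 and 11.04, DMSO arrays in place between 4.27 and 5.09, and the empty-vector arrays near 4.

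At the 4 times that chose the genes, the median change was 5.08 at 3 h, 5.85 at 9 h, 4.48 at 12 h and 5.12 at 30 h. The largest single change was 9.48, at 9 h. Among all probe sets 10.4% passed upward at 3 h, 11.8% at 9 h, 8.94% at 12 h and 12.7% at 30 h, and nothing is read from the set's own calls there. The change was lowest at 12 h for 82 of the 135 genes and at 30 h for 43, and it was largest at 9 h for 82 and at 30 h for 39. The DEX arrays of 3 and 12 h were split. DEX 3 h replicate 2 and DEX 12 h replicates 1 and 3 had gene medians of 8.75, 9.00 and 8.77, whereas the other 3 arrays of these times read 10.94 to 11.00. In the lower 3 arrays 119 to 122 of the genes lay below every DEX array of 9 h, but at least 134 still lay above every DMSO array of their time. For 119 genes each of these 3 arrays lay below each of the other 3, and for 9 each lay above. Among all probe sets 18.6% lay below and 21.9% above. At the edge of the choice, the lowest change was 3.29 for AT2G46620, 3.26 for AT1G48280 and AT2G32560, and 3.24 for AT4G17483 and AT5G59845. Just outside it was 3.19 for AT2G20720 and AT4G38950, 3.18 for AT1G49800 and 3.17 for AT1G55760 and AT3G03610.

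The 12 genes of highest rank kept a change of at least 6.61 at all of these times. The first was AT5G49690, a UDP-glycosyltransferase of the kind that joins sugars to small molecules, whose change was 8.71 at 9 h and lowest, at 8.20, at 30 h. It was followed by AT5G45320 with a lowest change of 7.85, AT5G60720 of the DUF547 family with 7.63, and AT1G29200 of the O-fucosyltransferase family with 7.33. The next were AT3G62160, a BAHD-type acyltransferase, with 7.24, AT5G19870 with 6.79 and AT1G63520 of the DUF3527 family with 6.72. The list goes on with AT2G41610 at 6.70, AT4G21420 at 6.63 and AT5G38610, of the pectin methylesterase inhibitor family, at 6.63. It closes with AT1G10810, an aldo-keto reductase, and AT2G18720, both at 6.61. For the 5 with no family named here, no role is given.

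At 6 h, a time the choice did not use, 111 of the 135 genes rose and none fell. A gene is called risen or fallen where limma's moderated test gave a Benjamini-Hochberg adjusted p under 0.05 over all 22746 probe sets and the change was at least 1. By the same measure 9.85% of all probe sets rose at 6 h. The change of the genes was above 0 in all 135, with a median of 4.03 and a range of 0.38 to 7.36, while the median over all probe sets was 0.00. In 101 of the genes all 3 DEX arrays lay above all 3 DMSO arrays, which held for 16.7% of all probe sets. DMSO replicate 2 was out of place. Without the arrays out of place, all 135 genes rose, with changes of 2.92 to 9.02 and a median of 5.20, against 12.3% of all probe sets. With the compared groups alone 39 genes rose.

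At 24 h, also not used by the choice, 70 of the 135 genes rose and none fell, against 2.89% of all probe sets. All 135 changes were above 0, from 1.42 to 6.31 with a median of 3.17. The groups did not overlap for 26 genes, against 3.60% of all probe sets. Both groups held 1 array out of place, DMSO replicate 1 and DEX replicate 2, and without them the 135 genes all rose, by 3.10 to 10.33 with a median of 5.51, against 13.3% of all probe sets. The count at 24 h rested on single arrays, and it was 1 with the compared groups alone. It was 134 without DMSO replicate 1 and 125 without DEX replicate 2, and between 15 and 18 when any of the other 4 arrays was left out instead.

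At 1 h no gene passed the test in either direction, with 0.0044% of all probe sets called up and 0.00879% down. The median change was 1.16 and 14 genes had an unadjusted p under 0.05. The 3 DEX arrays differed widely, with AT5G49690 at 11.39, 9.84 and 4.73. Replicate 1 was in place, and with it as the only DEX array of 1 h left, all 135 genes passed with a median change of 5.24, against 13.9% of all probe sets. The spread at 1 h cannot be read from that lone array, so no count is given, and it was not tested whether its levels are those of 1 h. At 48 h no gene passed, 0 genes had an unadjusted p under 0.05, and 0% of all probe sets were called up. The changes at 48 h ran from -0.96 to 1.19 with a median of 0.14, and 102 of 135 were above 0. In 29 genes all DEX arrays of 48 h lay above all DMSO arrays, against 9.52% of all probe sets. With the compared arrays alone 17 genes had an unadjusted p under 0.05 with a change above 0 and 3 with one below 0, and none passed. All 3 DEX arrays of 48 h were out of place and gave no value once left out.

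**Figure D2:**
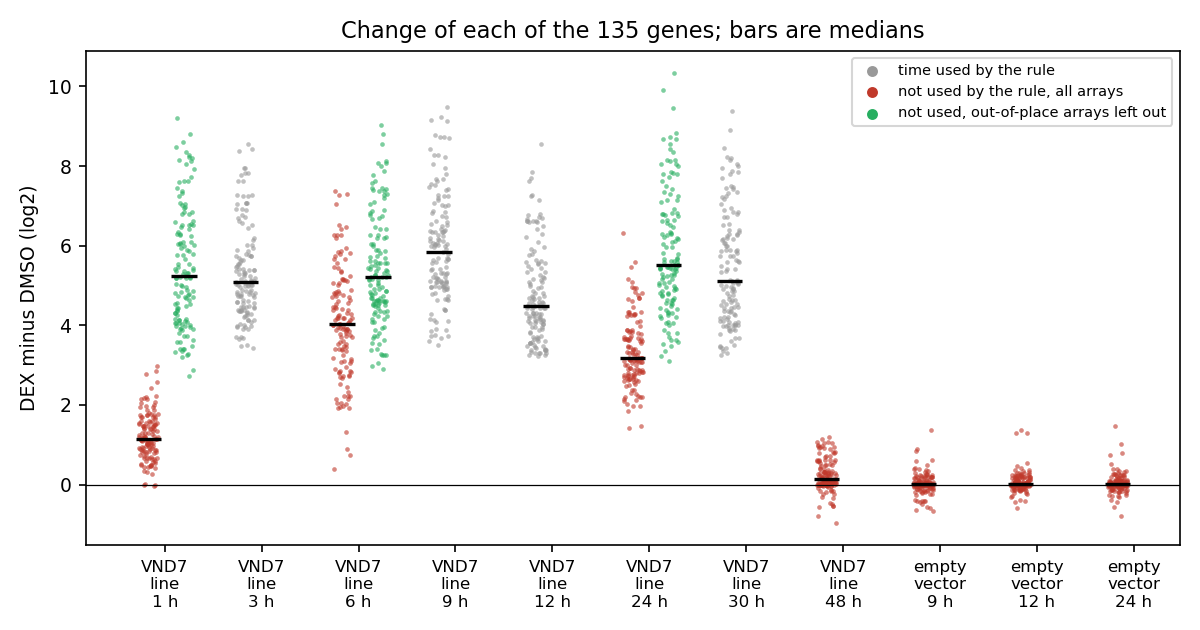
Change (DEX minus DMSO, log2) of each of the 135 genes in the VND7 line at 8 times and in the empty vector at 3 times; grey times chose the genes, red ones did not, green repeats the latter without the arrays out of place, and bars are medians. The red points lie above 0 for all genes at 6 and 24 h and around 0 at 48 h and in the empty vector.

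The genes were grouped by family from general knowledge. Each group's count stands beside 111 of all 135 genes risen at 6 h and 70 at 24 h. Among all probe sets 9.85% rose at 6 h and 2.89% at 24 h. With the compared groups alone 1 of the 135 genes passed at 24 h. Of the gene regulators, 5 of 6 rose at 6 h and 2 at 24 h. AT1G06170, a basic helix-loop-helix (bHLH) protein, read 8.39, 8.19 and 8.68 with DEX at 6 h and 2.15 in each of the 3 DMSO arrays. At 24 h it read 7.94, 5.48 and 7.54 with DEX and 2.15, 2.14 and 2.14 with DMSO. The groups were apart at both times, and the DMSO arrays out of place at 6 and 24 h were at the floor for this gene. Its change was 6.27 ± 0.72 (SE, adjusted p = 1.42e-09) at 6 h and 4.85 ± 0.72 (adjusted p = 6.41e-05) at 24 h.

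A second bHLH gene, AT1G71200, was less even. It read 6.24, 7.86 and 8.31 with DEX and 2.17, 3.69 and 2.24 with DMSO at 6 h, a change of 4.77 ± 1.02 (adjusted p = 0.000201). At 24 h the DEX arrays read 7.98, 2.15 and 7.38, so that replicate 2 was at the floor, and the change of 2.91 ± 1.02 did not pass (adjusted p = 0.0656). IAA30 encodes an Aux/IAA protein, a class that represses auxin responses. It read 7.38, 7.49 and 7.34 with DEX and 2.19, 4.78 and 3.00 with DMSO at 6 h, with no overlap and a change of 4.08 ± 0.78 (adjusted p = 4.22e-05). At 24 h its change was 3.68 ± 0.78 (adjusted p = 0.00313), with DEX replicate 2 at 3.31 below DMSO replicate 1 at 3.63. AT5G03510, a C2H2 zinc finger protein, and AT4G28140, of the AP2/ERF family, rose at 6 h by 5.34 ± 1.54 (adjusted p = 0.00524) and 5.44 ± 1.24 (adjusted p = 0.000471). AtS40-3, of a family named for senescence, was the regulator that did not pass at 6 h.

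The signalling group had 11 of 11 genes risen at 6 h and 11 of 11 at 24 h in the fit to all arrays. It holds 8 kinases, a calmodulin-binding family member and 2 proteins with TIR, nucleotide-binding and leucine-rich repeat domains, a layout of disease resistance receptors. NCRK, a receptor-like kinase, read 11.15, 11.40 and 11.44 with DEX and 4.01, 6.83 and 3.77 with DMSO at 6 h. The DEX values lay within 0.3 of each other and well above the DMSO values. The change was 6.46 ± 0.92 (adjusted p = 2.10e-07) at 6 h and 4.66 ± 0.92 (adjusted p = 0.00149) at 24 h. AT4G28650 is listed in the gene table as PXL2, for PXY-like, after the receptor kinase PXY of vascular stem cells. It read 12.21, 12.18 and 11.93 with DEX and 7.21, 10.73 and 6.58 with DMSO at 6 h, a change of 3.94 ± 1.03 (adjusted p = 0.00214). It was 1 of the 9 genes that were higher in the DEX arrays of 3 and 12 h with the lower medians. It read 10.90, 12.49 and 11.57 with DEX at 3 h. With DEX at 12 h it read 12.45, 10.90 and 12.46. The kinase gene AT1G03920 rose by 6.43 ± 1.07 (adjusted p = 3.83e-06) at 6 h and the receptor gene AT5G58120 by 2.95, the smallest change of the group.

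The cytoskeleton and vesicle group had 11 of 12 genes risen at 6 h and 9 of 12 at 24 h. As general background, their families are tied to vesicle traffic or to the cytoskeleton. A part of these genes in placing wall material was not tested. AT1G21810, a filament-like coiled-coil protein, read 9.94, 10.13 and 10.27 with DEX and 2.73, 3.00 and 2.76 with DMSO at 6 h. At 24 h it read 9.11, 7.77 and 8.78 with DEX and 3.81, 2.47 and 3.00 with DMSO. The groups were apart at both times, and its changes were 7.28 ± 0.78 (adjusted p = 2.27e-10) and 5.46 ± 0.78 (adjusted p = 6.41e-05). AT3G32400 encodes a formin, a protein that nucleates actin filaments. It read 10.18, 10.06 and 10.24 with DEX and 5.41, 6.98 and 5.38 with DMSO at 6 h, and 10.03, 8.35 and 9.61 against 6.68, 5.31 and 5.34 at 24 h. Again neither time showed overlap, and the changes were 4.24 ± 0.64 (adjusted p = 6.03e-07) and 3.56 ± 0.64 (adjusted p = 0.000681).

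The kinesin gene AT2G47500, whose family moves along microtubules, rose by 5.05 ± 0.88 (adjusted p = 8.58e-06) at 6 h and 2.87 ± 0.88 (adjusted p = 0.0350) at 24 h. The RAB6-interacting golgin family gave 2 genes, AT3G52900 and AT2G27740, which rose at 6 h by 3.96 and 4.03. AT1G12450, of the SNARE-associated Golgi protein family, was the gene of this group that did not pass at 6 h, with a change of 2.16 (adjusted p = 0.0722).

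Pectin is the gel-like polymer between the fibres of the wall, and 8 of the genes act on it, of which 7 rose at 6 h and 3 at 24 h. They are 5 of the polygalacturonase family, which cuts pectin, a rhamnogalacturonan lyase, a pectin methylesterase and a member of the inhibitor family of that enzyme. AT5G38610, the inhibitor family member, read 13.36, 13.40 and 13.44 with DEX and 6.59, 13.03 and 6.08 with DMSO at 6 h. DMSO replicate 2 was close to the DEX arrays and the other DMSO arrays were far below. The change was 4.83 ± 1.48 (adjusted p = 0.00851), and 7.06 ± 0.31 without the arrays out of place. AT1G05310, the methylesterase, read 9.50, 9.52 and 10.15 with DEX and 5.70, 12.62 and 5.05 with DMSO. Here DMSO replicate 2 was above the DEX arrays, and the change of 1.93 ± 1.75 did not pass (adjusted p = 0.469). The lyase gene AT4G24430 rose by 5.01 ± 1.33 (adjusted p = 0.00248) at 6 h and 4.97 ± 1.33 (adjusted p = 0.0172) at 24 h. The polygalacturonase family gene AT1G65570 was at the floor in every DMSO array in place and read 9.39, 9.26 and 9.62 with DEX at 6 h.

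Among 9 genes of other sugar polymers and glycosides, 7 rose at 6 h and 5 at 24 h. AT5G49690 read 11.66, 11.40 and 11.60 with DEX and 4.03, 10.47 and 2.94 with DMSO at 6 h. The DEX arrays lay above all DMSO arrays, and the change was 5.74 ± 1.55 (adjusted p = 0.00295). At 24 h it read 11.51, 9.61 and 11.51 with DEX and 10.24, 3.98 and 2.94 with DMSO, so that DEX replicate 2 lay below DMSO replicate 1, and the change was 5.16 ± 1.55 (adjusted p = 0.0319). AT1G29200 had the largest change of all 135 genes at 6 h, 7.36 ± 1.25 (adjusted p = 5.27e-06), with DEX at 11.73, 12.02 and 12.34 and DMSO at 3.19, 7.98 and 2.84. The genes held 2 of the glycoside hydrolase family 10, the family of xylanases, which cut the xylan of secondary walls. AT4G33810 rose by 3.35 ± 1.27 (adjusted p = 0.0335) at 6 h and 4.29 ± 1.27 (adjusted p = 0.0294) at 24 h. AT4G08160, listed as XYN3 in the gene table, read 10.30, 10.24 and 10.27 with DEX and 7.17, 13.09 and 6.55 with DMSO at 6 h. Its DMSO replicate 2 was again above the DEX arrays, and the change of 1.33 ± 1.41 did not pass (adjusted p = 0.559).

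Of 16 genes of metabolism, 11 rose at 6 h and 4 at 24 h. AT3G62160, whose acyltransferase family joins acyl groups to alcohols and amines of secondary metabolism, rose by 5.58 ± 1.41 (adjusted p = 0.00148) at 6 h and 4.29 ± 1.41 (adjusted p = 0.0492) at 24 h. AT5G51890 is a class III peroxidase, a family that includes the enzymes that couple lignin monomers. It read 13.93, 14.13 and 14.07 with DEX and 10.42, 13.69 and 9.92 with DMSO at 6 h, with no overlap and a change of 2.70 ± 0.83 (adjusted p = 0.00843). At 24 h it had the second smallest change of the 135 genes, 1.46 ± 0.83, which did not pass (adjusted p = 0.295). Its DEX arrays then read 14.22, 10.68 and 14.27 and its DMSO arrays 14.05, 10.20 and 10.55, so the array out of place in each group lay with the other. ACLA-2, a subunit of ATP-citrate lyase, which makes cytosolic acetyl-CoA, rose at 6 h by 3.07.

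All 6 genes tied to ubiquitin, the tag that marks proteins for breakdown, rose at 6 h, and 2 rose at 24 h. PUB26, a U-box ubiquitin ligase, rose by 5.07 ± 0.91 (adjusted p = 1.48e-05) at 6 h and 3.17 ± 0.91 (adjusted p = 0.0268) at 24 h. SK16, a SKP1-like protein of the scaffold that holds F-box proteins, was at the floor in the DMSO arrays in place and read 6.18 in the DMSO array of 6 h out of place. It rose by 3.15 ± 1.21 (adjusted p = 0.0364) at 6 h. The 3 armadillo repeat genes AT1G59850, AT5G14510 and AT3G03440 rose at 6 h by 5.15, 4.14 and 4.39. Of 9 genes with a domain of unknown function, 8 rose at 6 h and 6 at 24 h, led by AT1G63520 with 6.27 ± 1.21 (adjusted p = 4.57e-05) at 6 h. In the remaining described families 13 of 16 rose at 6 h and 7 at 24 h. Among the 39 genes with no family given here 29 rose at 6 h and 19 at 24 h.

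**Figure D3:**
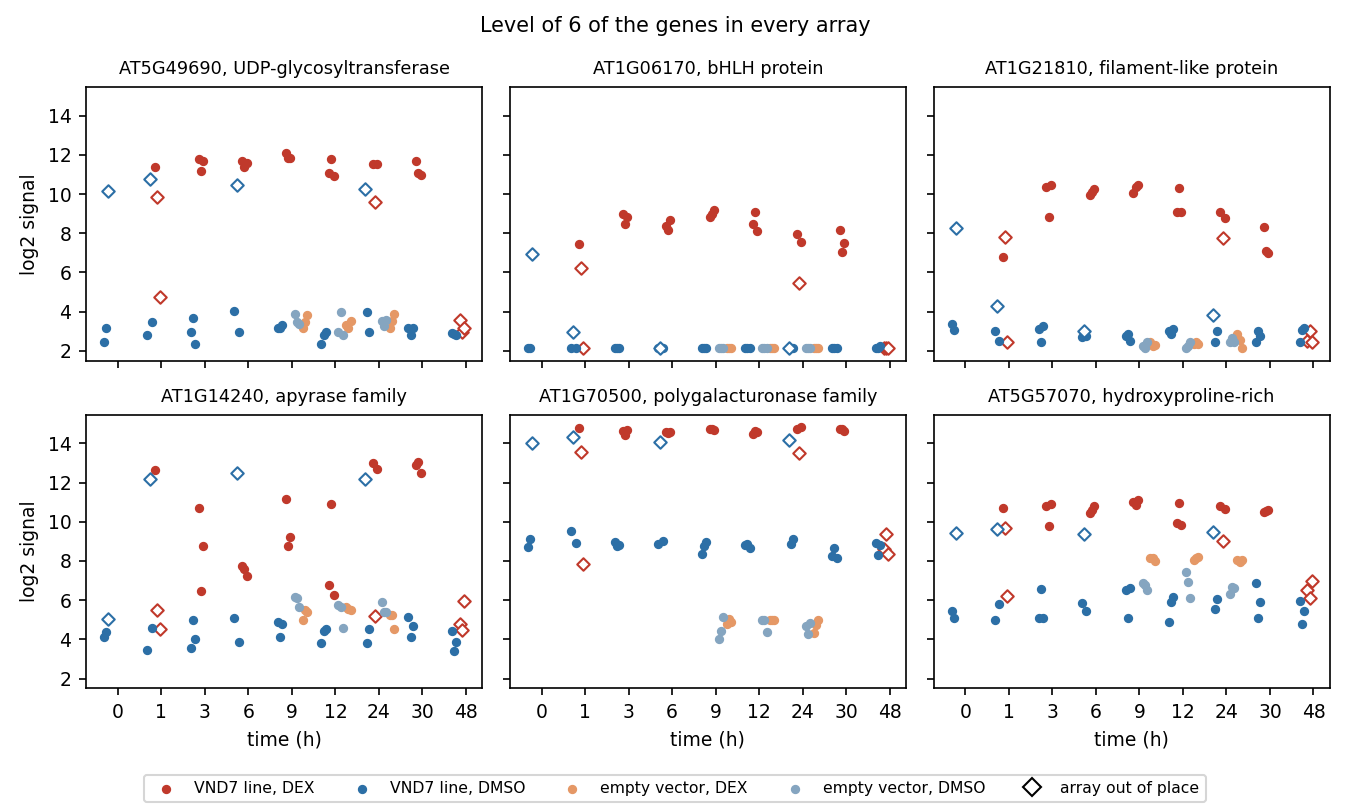
Log2 signal of 6 of the genes in every array against time (categories, not to scale), with open diamonds for the arrays out of place. AT1G06170 and AT1G21810 stay low in the DMSO arrays out of place at 6 and 24 h, whereas AT5G49690, AT1G14240 and AT1G70500 are high there.

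In the empty-vector line DEX called none of the 135 genes up or down at 9, 12 or 24 h by limma, and 0 had an unadjusted p under 0.05 at any of the 3 times. Among all probe sets 0.0703% were called up at 9 h, 0.0879% at 12 h and 0.0923% at 24 h, and 0.0132%, 0% and 0.0308% down. The median change of the genes was 0.01, 0.01 and 0.00. All DEX arrays lay above all DMSO arrays in 13, 9 and 10 genes, against 5.32%, 4.10% and 5.75% of all probe sets. This fit carried a wide error, because its spread came from all 69 arrays, those out of place included, and the median SE of a gene was 1.03. With the compared arrays alone the median SE was 0.118 to 0.148. No gene passed then either. An unadjusted p under 0.05 went with a change above 0 in 6 genes at 9 h, 6 at 12 h and 8 at 24 h, and with one below 0 in 3, 1 and 1. Without the arrays out of place 1 gene, AT5G50170, passed at 12 h, with a change of 1.38 ± 0.25 (adjusted p = 0.00228), against 0.193% of all probe sets called up. None passed at 9 or 24 h, where the shares were 0.167% and 0.189%.

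A few genes read somewhat higher with DEX in the empty vector. AT5G57070, a hydroxyproline-rich glycoprotein of the wall type, read 8.07, 7.94 and 8.03 with DEX and 6.31, 6.69 and 6.60 with DMSO at 24 h. Every DEX array lay above every DMSO array, and the change was 1.38, 1.29 and 1.48 at 9, 12 and 24 h. AT5G50170, which has C2 and GRAM domains that bind membranes, read 5.96, 5.41 and 4.98 with DEX and 4.05, 4.05 and 4.12 with DMSO at 12 h, again with no overlap. Its change was 0.84 at 9 h and 0.79 at 24 h. AT2G15830 changed by 0.90, 1.30 and 1.01 at 9, 12 and 24 h, and NCRK by 0.41, 0.54 and 0.74. These 4 genes were singled out after their values were seen. In the VND7 line AT5G57070 changed by 3.12 ± 0.96 at 24 h, and the difference from the empty vector was 1.64 ± 1.36, which did not pass (adjusted p = 0.717).

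The difference between the lines was tested itself at 24 h, as the change in the VND7 line minus that in the empty vector. It was above 0 for all 135 genes, with a median of 3.14, and 4 genes passed, against 0.136% of all probe sets. They were AT1G21810 with 5.47 ± 1.10 (adjusted p = 0.00866), AT1G06170 with 4.84 ± 1.02 (adjusted p = 0.0127), AT4G14200 with 3.75 ± 0.89 (adjusted p = 0.0386) and AT3G32400 with 3.73 ± 0.90 (adjusted p = 0.0429). For all 4 genes the 3 DEX arrays of the VND7 line lay above the DMSO arrays of both lines. A further 75 genes had an unadjusted p under 0.05 only. Without the arrays out of place all 135 genes passed, against 11.6% of all probe sets. The median difference was then 5.52. The count was 60 without DEX replicate 2 and 17 without DMSO replicate 1 of the VND7 line, 1 without DEX replicate 1 or 3, and 2 without any other array of these groups.

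Some of the genes were already higher in the VND7 line without DEX. At 24 h, 9 of the 135 were higher in its DMSO arrays than in the DMSO arrays of the empty vector and none was lower, against 1.01% of all probe sets higher and 1.26% lower. AT1G13470, of the DUF1262 family, read 10.10, 7.71 and 8.60 in the VND7 line and 2.49, 2.79 and 2.49 in the empty vector. AT1G70500, of the polygalacturonase family, read 14.16, 8.85 and 9.14 against 4.67, 4.28 and 4.83. For both genes even the lowest array of the VND7 line lay far above the empty vector. The differences were 6.21 ± 0.69 (adjusted p = 5.89e-09) and 6.13 ± 1.20 (adjusted p = 0.000645). The count rested on single arrays and on the spread used. It was 2 without DMSO replicate 1 of the VND7 line, the array out of place, 14 without its replicate 2, 4 or 5 without any 1 empty-vector array, and 1 with the compared groups alone. Without all arrays out of place 17 of the genes passed, against 1.42% of all probe sets. The difference was then 5.56 ± 0.26 for AT1G13470 and 4.41 ± 0.22 for AT1G70500.

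Over all times the picture was similar. In 18 of the 135 genes each of the 23 DMSO arrays in place of the VND7 line lay above each of the 18 empty-vector arrays, and in 0 genes all lay below. Among all probe sets these shares were 2.48% above and 1.81% below. AT1G13470 averaged 8.16 ± 0.43 (SD, n = 23) against 2.62 ± 0.17 (SD, n = 18), and AT1G70500 8.80 ± 0.31 against 4.74 ± 0.32. The polygalacturonase family gene AT1G23460 averaged 10.83 ± 0.16 against 8.45 ± 0.24, and AT5G58120 5.01 ± 0.42 against 2.57 ± 0.22. Each of these rose further with DEX at 6 h, as AT1G13470 did with 12.98, 12.96 and 13.07 at 6 h. The 2 lines were compared as 1 line each, and whether each was 1 insertion event is not given in the sources used here. In the other genes the ranges of the lines overlapped. In the DMSO arrays in place 26 genes were at the floor, as were 33 in the empty vector, among them AT2G18720, AT1G65570, SK16, AT1G71200 and AT3G52620. Their changes start from a level that was not measured and depend on where the floor lies.

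**Figure D4:**
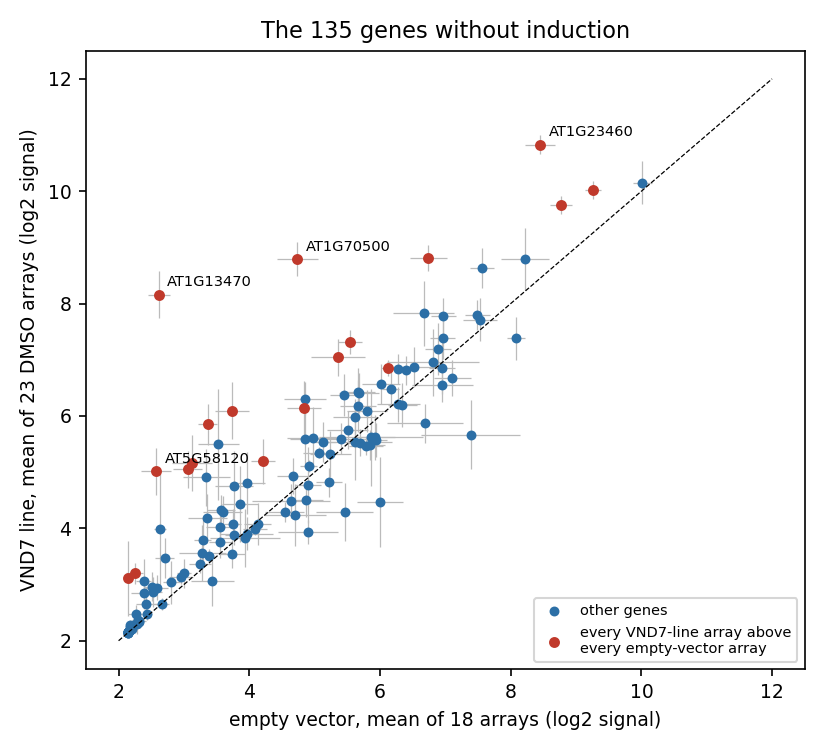
Mean log2 signal of each of the 135 genes in the 23 DMSO arrays in place of the VND7 line (vertical) against the 18 empty-vector arrays (horizontal), with SD as bars and equality as the dashed line. In 18 genes (red) the ranges do not overlap, and AT1G13470 and AT1G70500 lie farthest above the line.

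The genes did not keep 1 time course. The change at 30 h minus that at 9 h was over 1 in 17 genes, under -1 in 48 and between these in 70. For 21 genes the 3 DEX arrays of 30 h all lay above those of 9 h, for 72 all lay below, and for 42 they overlapped. Of all probe sets 20.6% lay above and 16.9% below in this way. These arrays chose the genes, so the split is a description. The later genes were led by AT1G14240, of the apyrase family that splits nucleotides, with 3.03, and AtS40-3 with 2.27. AT3G10590 followed with 1.86, AT1G74010, a strictosidine synthase-like protein, with 1.80, and AT3G49070, of the DUF677 family, with 1.78. The earlier genes were led by AT1G71200 with -3.06, AT1G30515 with -2.87 and AT1G21810 with -2.86. Next came AT1G26290 with -2.75 and AT3G18670, an ankyrin repeat protein, with -2.74. None of the 12 cytoskeleton and vesicle genes and none of the 11 signalling genes was among the later ones, whereas 7 and 5 of them were among the earlier ones. Of the 16 metabolism genes 4 were later and 2 earlier. These groups are small, and a difference between families was not tested.

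AT1G14240 shows the later course. With DEX it read 7.77, 7.59 and 7.25 at 6 h and 11.16, 8.76 and 9.24 at 9 h. By 30 h it read 12.89, 13.02 and 12.50, while its DMSO arrays in place stayed between 3.43 and 5.15. AT1G21810 shows the earlier one, with 10.05, 10.39 and 10.48 at 9 h and 8.34, 7.10 and 7.02 at 30 h. The bHLH gene AT1G71200 read 8.66, 8.75 and 9.21 at 9 h and 7.19, 4.97 and 5.29 at 30 h. In all 3 genes the DEX arrays of both times lay above every DMSO array in place, and the genes differ in when the DEX level was highest.

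The 2 sets were then followed in other arrays, as the mean level minus that in DEX arrays of 9 h. The 9 h arrays helped to form the sets, so the distance from 0 is partly set by the choice. The subtraction moves all arrays alike and leaves differences between arrays of other times as they are. In the 3 DEX arrays of 6 h the 17 later genes stood at -1.27, -1.34 and -1.38 and the 48 earlier ones at -0.64, -0.51 and -0.29. In DEX 24 h replicates 1 and 3 the later genes stood at 1.78 and 1.58 and the earlier ones at -1.05 and -1.17, close to the 3 arrays of 30 h. DEX 1 h replicate 1 sat with the arrays of 30 h, at 1.39 and -1.64. Between the DEX arrays of 6 h and those of 24 h in place, neither of which formed the sets, the later genes were higher and the earlier ones lower at 24 h. No p is given, since the sets were formed on arrays of the same series.

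The arrays out of place fell into separate kinds by these sets. In the DMSO arrays of 1 h replicate 2, 6 h replicate 2 and 24 h replicate 1, the later genes stood at 0.46 to 0.55, near or above the DEX level of 9 h, and the earlier ones at -3.52 to -3.10. AT1G14240 read 12.19, 12.49 and 12.17 in these arrays. AT1G06170 read 2.99 in that of 1 h and was at the floor in those of 6 and 24 h. In DMSO 0 h replicate 3, DEX 1 h replicate 2 and DEX 24 h replicate 2, the later genes stood at -3.39 to -3.13 and the earlier ones at -4.08 to -3.71. There AT1G06170 read 6.94, 6.24 and 5.48 and AT1G21810 8.26, 7.82 and 7.77. The 4 remaining arrays, DEX 1 h replicate 3 and the 3 of 48 h, were at -5.60 to -5.18 and -6.63 to -6.33, which is the DMSO level. What set these arrays apart was not tested.

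**Figure D5:**
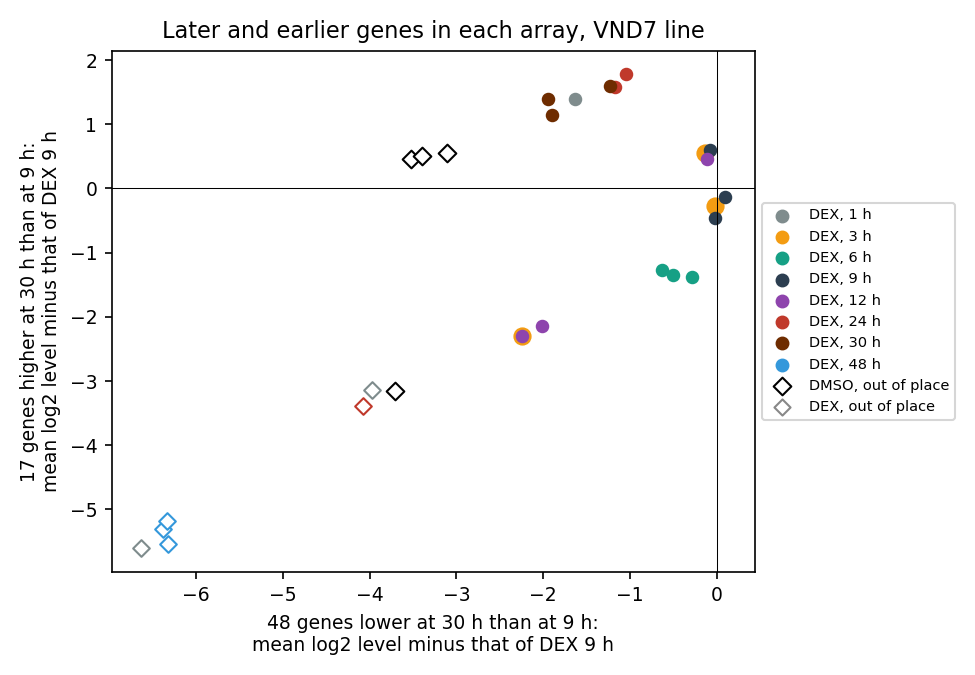
Each point is 1 array of the VND7 line, placed by the mean log2 level of the 48 earlier genes (horizontal) and the 17 later genes (vertical), both minus the mean of the DEX arrays of 9 h; open diamonds are arrays out of place, and a large 3 h point lies under a 12 h point near -2.2. DEX arrays of 24 and 30 h in place sit at the upper left of the 9 h arrays, those of 6 h below them, and 3 DMSO arrays lie apart at about -3.1 to -3.5.

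The 3 smallest changes at 6 h belonged to later genes. AT1G14240 changed by 0.38 ± 1.85 and AT3G49070 by 0.74 ± 1.73, and AtS40-3 by 0.90 ± 1.31, and none passed. In AtS40-3 the DEX arrays read 5.72, 5.52 and 3.94 and the DMSO arrays 2.14, 8.19 and 2.15. For all 3 genes the highest of the 6 arrays was DMSO replicate 2, the one out of place. Without the arrays out of place the changes were 3.05 ± 0.83, 3.28 ± 0.92 and 2.92 ± 0.47. At 24 h the largest change was that of AT3G10590, which read 12.94, 7.19 and 12.04 with DEX and 8.91, 2.15 and 2.17 with DMSO. Its change was 6.31 ± 1.62 (adjusted p = 0.0133), although DEX replicate 2 lay below DMSO replicate 1.

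As members of a set built on 1 pattern, the genes ran closely together over the 51 arrays of the VND7 line. The correlation of a gene with the mean of the others was 0.795 at the lowest, for AT4G19460, 0.969 at the median and 0.996 at the highest, for AT3G03440. These values describe arrays that share the treatment and the choice of genes, and carry no test. The genes outside the set whose pattern was most like its mean were AT5G59840 with a correlation of 0.994, AT3G03610 with 0.991, AT1G17620 with 0.989, and AT1G35780 and AT5G04830 with 0.986 each. Of the 135 genes 134 were placed on a chromosome through the TAIR10.1 gene table. On chromosome 1 lay 47 of them, which is 35.1%, against 26.4% of the probe sets with 1 gene that were placed. The pairs AT1G10800 with AT1G10810 and AT5G57070 with AT5G57080 are direct neighbours among protein-coding genes. Signal of the 1 probe set marked as shared by similar transcripts, that of AT1G23460, may come from related genes.

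Known genes of vessel formation were set beside the 135, from lists of which only some loci had a named probe set. Of 19 xylan genes 4 were measured, and GUT2 and IRX15-L rose at 6 h by 4.42 and 4.21. The third that rose there was GUT1, with 1.11. Of 20 lignin genes 5 were measured, and AT5G51890, a member of the set, was the one that rose at 6 h. Of 11 cell death genes 4 were measured and 2 rose at 6 h, among them AT4G04460, an aspartic protease, with 5.28. KINESIN-13A, the 1 measured of 10 wall patterning genes, rose by 2.41. AT1G66810, a zinc finger protein and the 1 measured of 33 regulators, rose by 8.04. AT1G66810, the xylan genes GUT2, IRX15-L and IRX15, and the cell death genes AT4G04460, AT4G18425 and scpl48 were in the top 150. All of these were among the 15 left out, so they passed the same ranking as the set. None of 8 cellulose genes was measured under its name. At 24 h none of the xylan, lignin and cell death genes measured rose, whereas KINESIN-13A and AT1G66810 rose by 1.31 and 4.89. None of the measured genes of these lists fell at 6 or 24 h, and 1 lignin gene, AT5G64120, fell by 1.16 at 3 h.

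Markers of other cell types were measured in part. For 2 of 5 photosynthetic markers, LHCB4.1 and PORB, the mean level was 11.50 to 12.61 in DMSO arrays in place and 5.83 to 10.18 in DEX arrays in place. For 2 of 6 root hair markers, EXPA7 and EXPA18, it was 3.29 to 4.33 and 4.0 to 6.0. For 1 of 10 phloem markers, OPS, it was 2.74 to 4.11 and 2.50 to 3.95, and 0 of 3 epidermis markers were measured. At 6 h OPS fell by 1.02, and the other 4 markers did not pass at 6 or 24 h. At the times of the choice both photosynthetic markers fell at 3, 9 and 30 h and both root hair markers rose at 30 h. OPS fell at 3 h, with a change of -1.03. The markers did not pass otherwise at these times. Their part in the changes of the 135 genes was not tested. None of the 135 genes is on a marker list.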

How the data were processed

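Per the labels, RNA of 69 Arabidopsis cultures was hybridised to 1 array each. The authors deposited 1 log2 signal for each probe set, made with GCRMA per the submitters' processing notes (version not given). No scaling was added. After removal of 64 controls, 22746 probe sets entered the tests. Of these 13513 name 1 gene, 503 name several and 8730 were used without a name. No pair of arrays held identical values. Detection calls were not used here, and the number of arrays limits the precision.

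limma 3.58.1 in R 4.3.3 fitted 1 mean per group to all 69 arrays, with moderation that follows the mean signal. A call needs a Benjamini-Hochberg adjusted p under 0.05 over all probe sets and a change of at least 1 (log2), two-sided. There were 13 comparisons. The method was run on simulated data with independent noise and changes added at 6 h only. Those data held no arrays out of place, so they cannot show how such arrays act on the counts. Genes, lists and comparisons were chosen with earlier results of these data known. Named are the 12 genes of highest rank, the 5 on each side of the edge, up to 6 per family group, the 5 extremes per measure and members of fixed lists. Other named genes were chosen after their values were seen. Protein families are general knowledge of the loci, since the gene table describes only a few. Symbols come from the platform annotation and the TAIR10.1 gene table. Promoter sequences were not analysed here. The result for 1 gene is not reported here.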

Additional observations from a re-analysis of the deposited data

Results flagged for a closer look

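For 4 of the genes the response to DEX at 24 h differed between the VND7 line and the empty vector by limma's test of that difference. The difference was 5.47 for AT1G21810, 4.84 for AT1G06170, 3.75 for AT4G14200 and 3.73 for AT3G32400 (log2). At 24 h AT4G14200, a pentatricopeptide repeat protein, read 9.13, 9.19 and 9.04 with DEX and 5.34, 5.48 and 5.54 with DMSO in the VND7 line. In the empty vector it read 3.17, 3.22 and 3.08 with DEX and 3.42, 3.12 and 3.17 with DMSO. In the DMSO array of 24 h that was out of place, AT1G06170 and AT4G14200 lay within the level of the other DMSO arrays, whereas AT3G32400 and AT1G21810 stood above it, at 6.68 and 3.81. The median over the 135 genes in that array was 8.97.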

How the results depend on the processing

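The counts of risen genes depended on the arrays out of place. Without them the count went from 70 to 135 at 24 h and from 4 to 135 for the difference between the lines. It went from 9 to 17 for DMSO between the lines. In the empty vector at 12 h it went from 0 to 1, the last alternative being added after seeing the data. At 1 h only 1 DEX array was then left, so no count is given there. At 48 h it could not be computed. With the compared groups alone the count was 39 at 6 h, 1 at 24 h and 1 for DMSO between the lines. Leaving out each array in turn gave 0 to 20 at 1 h, 79 to 130 at 6 h, 15 to 134 at 24 h, 1 to 60 for the difference between the lines, 2 to 14 for DMSO between the lines, and 0 throughout at 48 h and in the empty vector. At 6 h the lowest counts, 79 and 80, came without DMSO replicates 3 and 1. Without DMSO 6 h replicates 1 and 3 the 6 h change turned negative for AT1G14240 (-0.65 and -1.26), AT3G49070 (-0.29 and -0.77) and AtS40-3 (-0.11 and -0.10), and without DMSO 6 h replicate 2 it was 3.05, 3.28 and 2.92 for these genes. Centring each array on its median raised the genes' changes by 0.43 at 6 h and 0.22 at 24 h and gave 122 and 73 genes, quantile normalization 110 and 68, and keeping probe sets with a mean of at least 4 left 119 of the genes, of which 102 and 70 passed. Replicate numbers are shared between groups, but in 0 of 11 pairs of groups did every same-numbered pair of arrays deviate together, so they were not taken as pairs. With the replicate block 109 genes passed at 6 h, 65 at 24 h, 3 for the difference between the lines, 8 for DMSO between the lines and 0 elsewhere. Taking group medians in the choice gave 139 genes, 113 of them shared, adding 6 h gave 137 with 115 shared, centring gave 135 with 134 shared, and leaving genes out before ranking gave 150 with all 135 shared.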
